A study of Homo sapiens with 8 samples.

Results

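The 10 genes KRT8, KRT18, KRT19, CLDN3, CLDN4, CLDN7, CDH1, EPCAM, ELF3 and ESRP1 are keratin, junction and regulator genes of epithelium, grouped here as a luminal set. They were taken by name from a polyA RNA table of 18892 genes. All 10 had a row. The table holds 2 libraries of C4-2 cells with a short hairpin against CDCA8 (shCDCA8) and 2 libraries of C4-2 cells with a control hairpin (shCTRL). C4-2 is an established human prostate cancer line of the LNCaP lineage, and the hairpins are the only difference that the labels state. CDCA8 encodes borealin, a subunit of the complex that guides chromosome segregation. The titles name 1 hairpin per group, so an effect of the hairpin outside CDCA8 and loss of CDCA8 cannot be told apart. The labels do not say whether the libraries of a group came from separate cultures, so p-values measure the spread between these libraries, which may be technical. A further 4 libraries of the study, of small RNA, do not measure these genes and were not used here.

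Keratins are the intermediate filament proteins of epithelial cells, and each filament is built from pairs of a type II keratin (KRT8) and a type I keratin (KRT18 or KRT19). Claudins (CLDN3, CLDN4, CLDN7) are the membrane proteins that seal tight junctions, and E-cadherin (CDH1) holds neighbouring cells together at adherens junctions. EPCAM is a surface adhesion protein that binds claudin-7. ELF3 is an epithelial transcription factor of the ETS family, and ESRP1 is an RNA-binding protein that sets epithelial patterns of splicing. In the prostate, KRT8 and KRT18 mark luminal cells, and KRT5, KRT14 and TP63 mark basal cells.

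In cells with the CDCA8 hairpin ELF3, KRT8, KRT18 and CLDN4 rose, CLDN3, ESRP1 and KRT19 fell, and CLDN7, CDH1 and EPCAM did not pass the test. The values are RPM, read counts that the authors scaled to a common library total. "Rose" and "fell" are used of genes with a Benjamini-Hochberg adjusted p under 0.05 over the 11833 genes that reached at least 1 RPM in at least 2 of the 4 libraries, by limma on log2(RPM + 1), and a fold change on this scale understates the change of low genes. All 10 genes passed that filter, with between 117 and 183 reads a library for KRT19 and between 698 (ELF3) and 19747 (KRT8) for the other 9. The 7 called genes compare with 66.4% of all tested genes called in either direction, the 4 that rose with 18.8% called higher, and the 3 that fell with 47.6% called lower. The fold changes of the 10 genes lay between -1.25 and 1.04 with a median of 0.17 (log2), beside a median of -0.27 over all tested genes.

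The table as a whole was shifted, and this bears on every weak change below. The gene rows held 33.3% and 34.2% of the authors' divisor in shCDCA8 libraries and 41.1% and 43.6% in shCTRL libraries, or between 17406425 and 21920570 reads a library. After rescaling every library by the median, over genes, of its ratios to the geometric mean library (median-ratio scaling), 33.2% of genes were called higher and 33.6% lower, and of the 10 genes 7 were called higher (ELF3, KRT8, KRT18, CLDN4, CDH1, EPCAM and CLDN7) and 1 lower (CLDN3), so that 8 were called, beside 66.8% of all genes. The calls of ELF3, KRT8, KRT18 and CLDN3 held under all 14 alternative settings. CDCA8 itself stood at 3.98 and 3.94 RPM in shCDCA8 libraries, against 14.2 and 16.5 RPM in shCTRL libraries.

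**Figure D1:**
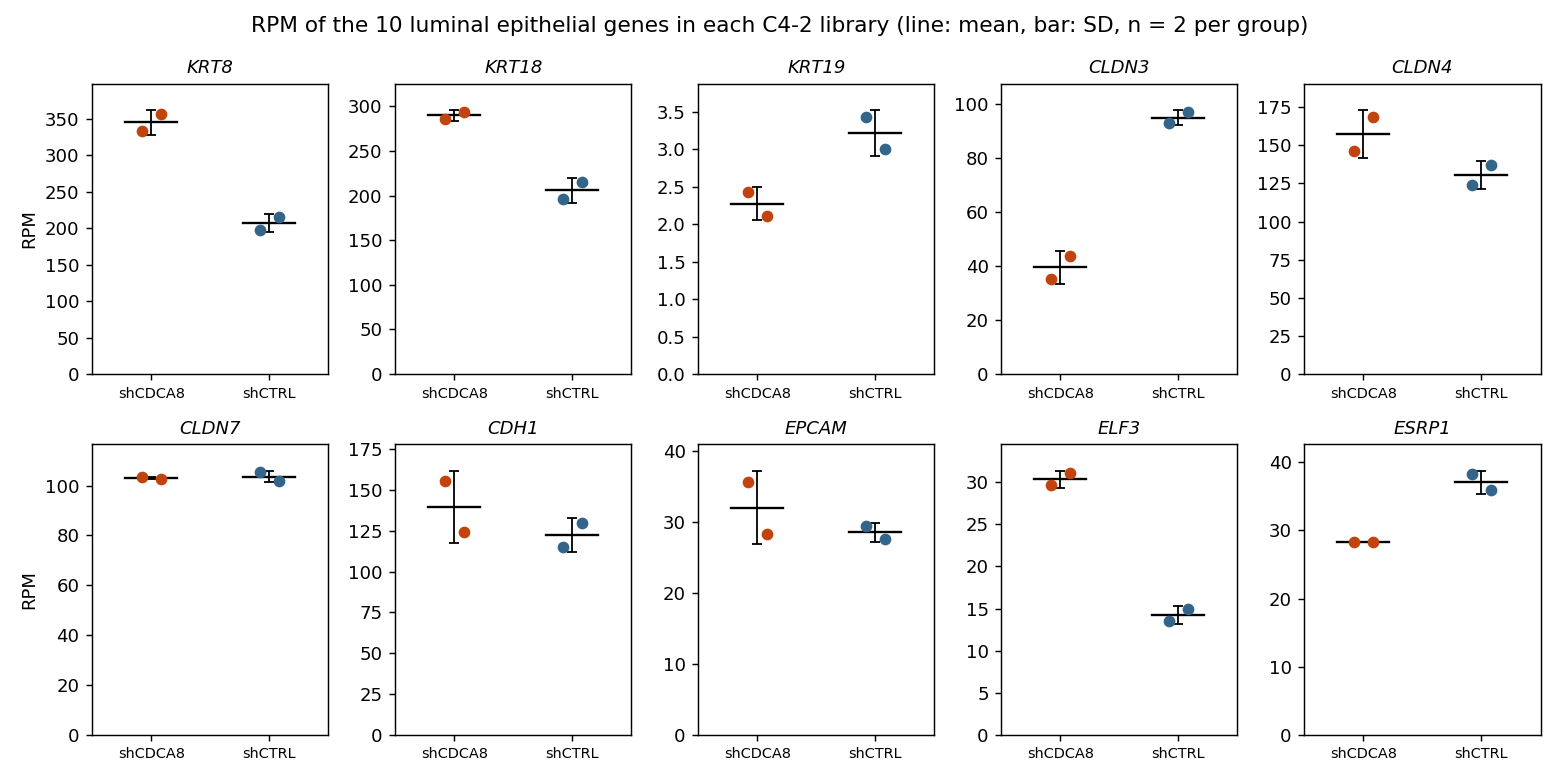
RPM of each of the 10 genes in the 2 shCDCA8 libraries (left) and the 2 shCTRL libraries (right); points are libraries, the line is the mean and the bar the SD (n = 2). The groups do not overlap for KRT8, KRT18, KRT19, CLDN3, CLDN4, ELF3 and ESRP1, and overlap for CLDN7, CDH1 and EPCAM.

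Promoter sequence is shown for the neighbouring claudin genes called in opposite directions, CLDN3 and CLDN4, and for the members with the largest rises, ELF3 and KRT8. Each run is the 250 bases before an annotated start, read 5′ to 3′ on the gene's strand, from RefSeq on GRCh38.p14. The deposited table rests on hg19, so these positions were used with no other coordinate. Of the 10 genes 5 had an entry, the fifth being CLDN7 with 2 starts. Capitals mark exact matches, on either strand, to CAGGTG (an E-box read by ZEB and SNAI repressors), AACCGG (part of the grainyhead-like site) or GGGCGG (the GC box); no matches overlapped in these runs.
CLDN3, chr7:73770271-73770520, minus strand: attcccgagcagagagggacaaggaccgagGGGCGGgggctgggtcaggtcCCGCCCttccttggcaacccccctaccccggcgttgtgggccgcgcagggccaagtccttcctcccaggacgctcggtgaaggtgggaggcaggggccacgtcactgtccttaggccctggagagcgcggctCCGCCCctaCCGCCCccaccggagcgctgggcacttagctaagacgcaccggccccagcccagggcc
CLDN4, chr7:73830746-73830995, plus strand: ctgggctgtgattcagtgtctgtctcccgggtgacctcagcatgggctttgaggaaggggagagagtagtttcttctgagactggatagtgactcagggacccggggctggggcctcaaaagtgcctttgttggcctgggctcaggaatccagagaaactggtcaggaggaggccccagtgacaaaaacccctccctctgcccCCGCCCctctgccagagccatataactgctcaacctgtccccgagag
ELF3, chr1:202010337-202010586, plus strand: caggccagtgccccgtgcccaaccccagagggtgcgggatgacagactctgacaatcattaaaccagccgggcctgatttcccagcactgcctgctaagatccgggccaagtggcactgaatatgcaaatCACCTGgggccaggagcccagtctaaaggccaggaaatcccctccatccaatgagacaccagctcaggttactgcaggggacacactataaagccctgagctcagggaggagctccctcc
KRT8, chr12:52926470-52926719, minus strand: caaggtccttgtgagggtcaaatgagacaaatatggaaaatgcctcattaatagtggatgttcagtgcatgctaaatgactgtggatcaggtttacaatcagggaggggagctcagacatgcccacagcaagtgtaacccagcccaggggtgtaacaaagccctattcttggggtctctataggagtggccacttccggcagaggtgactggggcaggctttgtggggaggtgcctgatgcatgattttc

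The CLDN3 promoter held 4 GC boxes and the CLDN4 promoter 1, and 42.6% of 35116 promoters in the table held at least 1. G and C made up 71.6% of the CLDN3 run and 58.8% of the CLDN4 run, beside a median of 58.0% over all promoters. ELF3 had 1 E-box on the other strand, as CACCTG, a motif found in 17.5% of promoters. The KRT8 run, at the 1 start with an entry, held no match to the motifs searched. Any other start of KRT8 was not searched. AACCGG, present in 5.99% of promoters, was matched at 1 of the 2 CLDN7 starts, once on each strand, and at no other searched start of the 5 genes. That CLDN7 window also held CAGGTG 2 times on each strand. A match describes letters in this window and is not evidence of binding.

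KRT8, the type II keratin of simple epithelium, was at 333 and 357 RPM in shCDCA8 libraries, against 198 and 216 RPM in shCTRL libraries. The lowest shCDCA8 value was above the highest shCTRL value by more than the gap within either group. Its mean rose 1.67-fold (log2 fold change 0.74 ± 0.0909, SE, n = 2 against 2, adjusted p = 2.42e-05), and by 1.05 on the log2 scale after median-ratio scaling.

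KRT18, the type I partner of KRT8, was at 286 and 294 RPM in shCDCA8 libraries, against 196 and 215 RPM in shCTRL libraries. The groups did not overlap, and the log2 fold change was 0.49 ± 0.0903 (adjusted p = 0.000458). For 7 of the 10 genes the groups did not overlap, beside 83.2% of all tested genes: both shCDCA8 libraries were higher for 4 genes, beside 26.5%, and both were lower for 3, beside 56.8%.

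The partners were also compared within each library. The ratio of KRT8 to KRT18 RPM within a library, which does not move with the scaling, was 1.17 and 1.21 in shCDCA8 libraries, against 1.01 and 1.003 in shCTRL libraries. The mean ratio was 1.19 ± 0.0336 in shCDCA8 libraries and 1.01 ± 0.00513 in shCTRL libraries (SD, n = 2). The difference of 0.24, taken from log2(RPM + 1) within each library, had an exact two-sided permutation p of 0.333. That is the smallest that 2 against 2 libraries allow. RPM is not divided by gene length, so the ratio itself does not give the balance of the transcripts. The KRT8 and KRT18 genes overlap in RefSeq, and no source used here says whether the counting used strand, so reads in the shared stretch cannot be assigned. Both also have processed pseudogenes, and 2 pseudogene rows of these keratins in the table reached at most 0.0750 RPM.

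KRT19, a type I keratin without the tail domain, was close to the filter, at 2.43 and 2.12 RPM in shCDCA8 libraries, against 3.43 and 2.997 RPM in shCTRL libraries. All shCDCA8 values were lower, and the log2 fold change of -0.36 ± 0.136 passed narrowly (adjusted p = 0.0323). That fall is close to the shift of all genes: relative to their median it was -0.10, and with median-ratio scaling KRT19 was not called (-0.14, adjusted p = 0.41). The call was also lost without shCTRL replicate 1 (-0.29, adjusted p = 0.124), shCDCA8 replicate 1 (-0.43, adjusted p = 0.0518) or shCDCA8 replicate 2 (-0.30, adjusted p = 0.195).

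**Figure D2:**
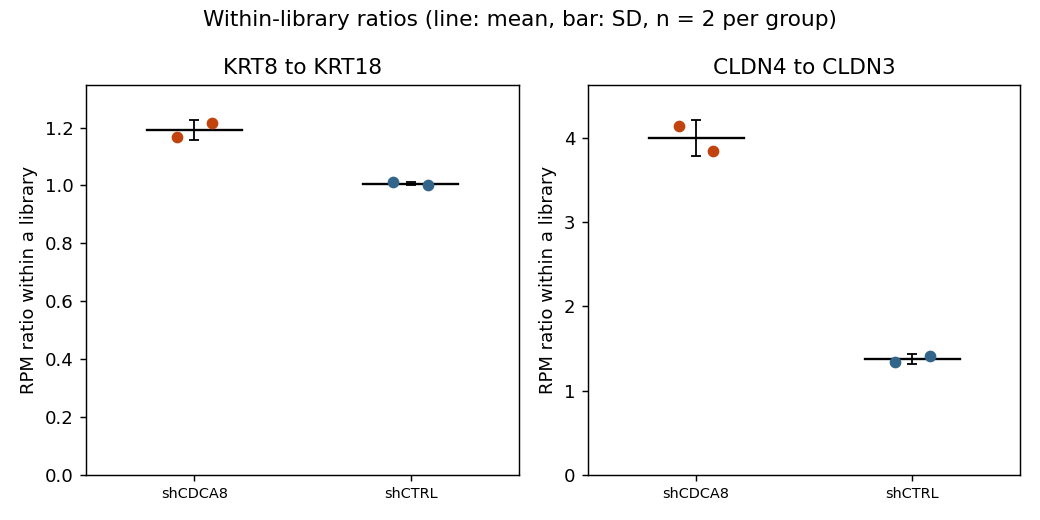
Within-library RPM ratios of KRT8 to KRT18 and of CLDN4 to CLDN3 in shCDCA8 (left) and shCTRL (right) libraries; the line is the mean and the bar the SD (n = 2). Both ratios are higher in each shCDCA8 library than in either shCTRL library, at 1.17 and 1.21 against 1.01 and 1.003, and at 4.14 and 3.85 against 1.33 and 1.41.

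CLDN3 and CLDN4, claudins of many simple epithelia, are next to each other among the genes of the table on chromosome 7. CLDN3 was at 35.3 and 43.8 RPM in shCDCA8 libraries, against 93.1 and 97.1 RPM in shCTRL libraries. It had the largest fall of the 10 genes, to 0.416 of the control mean (log2 fold change -1.25 ± 0.117, adjusted p = 2.87e-06), with -0.95 after median-ratio scaling.

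CLDN4 was at 146 and 169 RPM in shCDCA8 libraries, against 124 and 137 RPM in shCTRL libraries. The gap between the groups was smaller than that within either group, and the log2 fold change was 0.26 ± 0.103 (adjusted p = 0.0396). Without shCTRL replicate 1 it was 0.19 (adjusted p = 0.217) and without shCDCA8 replicate 2 it was 0.16 (adjusted p = 0.288). CLDN4 was also not called without the filter on low values (adjusted p = 0.0834), and it was called under each of 5 other scalings or count models, between 0.50 and 0.59.

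The ratio of CLDN4 to CLDN3 RPM within a library was 4.14 and 3.85 in shCDCA8 libraries, against 1.33 and 1.41 in shCTRL libraries. The mean ratios were 3.996 ± 0.210 in shCDCA8 and 1.37 ± 0.0567 in shCTRL libraries (SD, n = 2). Taken from log2(RPM + 1) within each library, the difference was 1.52 (exact two-sided permutation p = 0.333, again the smallest possible). On the far side of CLDN4, WBSCR27 fell to 3.96 and 4.54 RPM in shCDCA8 libraries, against 12.6 and 14.0 RPM in shCTRL libraries. Beside CLDN3, the hydrolase gene ABHD11 was at 20.0 and 22.7 RPM in shCDCA8 libraries, against 27.8 and 30.3 RPM in shCTRL libraries, a fall (-0.43) that median-ratio scaling reduced to -0.13, with no call (adjusted p = 0.267).

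CLDN7, the claudin that binds EPCAM, was at 103 RPM in both shCDCA8 libraries, against 105 and 102 RPM in shCTRL libraries. Both shCDCA8 values lay between the shCTRL values, and the log2 fold change was -0.0074 ± 0.0932 (adjusted p = 0.948). Its direction turned with the scaling, to 0.30 and a call after median-ratio scaling (adjusted p = 0.0106). The gene overlaps ELP5, an Elongator subunit gene, which was at 26.2 and 25.3 RPM in shCDCA8 libraries and 24.1 and 23.0 RPM in shCTRL libraries, and reads in the shared stretch cannot be assigned.

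Among 13 other claudins with a row, 9 stayed under 1 RPM in every library. Of the 4 tested, CLDN12 rose (27.3 and 30.7 RPM in shCDCA8, 20.8 and 18.5 RPM in shCTRL libraries) and CLDN15, CLDN23 and CLDN8 fell (log2 fold changes -1.20, -1.20 and -0.79), with the same calls after median-ratio scaling.

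CDH1, E-cadherin, was at 155 and 124 RPM in shCDCA8 libraries, against 115 and 130 RPM in shCTRL libraries. The groups overlapped, since shCDCA8 replicate 1 was above and replicate 2 below the higher shCTRL value, and the log2 fold change of 0.18 ± 0.117 did not pass (adjusted p = 0.191). Without shCDCA8 replicate 1 it was 0.02 (adjusted p = 0.906), and without shCDCA8 replicate 2 it was 0.34 (adjusted p = 0.0193). After median-ratio scaling CDH1 was called higher (0.49, adjusted p = 0.00693).

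The next gene on chromosome 16, CDH3, encodes P-cadherin, a cadherin of basal epithelium. It fell to 1.36 and 1.61 RPM in shCDCA8 libraries, against 4.03 and 5.10 RPM in shCTRL libraries (log2 fold change -1.16 ± 0.145, adjusted p = 2.59e-05). On the other side TANGO6 fell by 0.45 on the log2 scale, and by 0.20 with no call after scaling (adjusted p = 0.188).

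EPCAM was at 35.7 and 28.4 RPM in shCDCA8 libraries, against 29.5 and 27.7 RPM in shCTRL libraries. The groups overlapped, and shCDCA8 replicate 1 stood apart from the other 3 libraries, as it did for CDH1. The log2 fold change was 0.15 ± 0.128 (adjusted p = 0.312), or -0.0090 without that library (adjusted p = 0.967), and EPCAM was called higher after median-ratio scaling (0.45, adjusted p = 0.0166).

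ELF3 was at 29.6 and 31.1 RPM in shCDCA8 libraries, against 13.5 and 14.9 RPM in shCTRL libraries. The groups were far apart relative to the gap within each, and the mean rose 2.13-fold (log2 fold change 1.04 ± 0.118, adjusted p = 1.2e-05). This was higher than for 97.3% of tested genes. Leaving out any single library kept it between 0.97 and 1.11.

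ESRP1 was at 28.3 RPM in both shCDCA8 libraries, against 38.3 and 35.9 RPM in shCTRL libraries. The groups did not overlap and the log2 fold change was -0.38 ± 0.108 (adjusted p = 0.0088). Relative to the median of all genes it was -0.11, it was not called under any of 5 other scalings or count models (between -0.11 and -0.06), and without shCTRL replicate 1 it was -0.33 (adjusted p = 0.0589). Its paralogue ESRP2 also fell, to 11.6 and 15.2 RPM in shCDCA8 libraries, against 24.6 and 31.1 RPM in shCTRL libraries (log2 fold change -1.001 ± 0.152), and kept its call after scaling (-0.71, adjusted p = 0.00196).

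**Figure D3:**
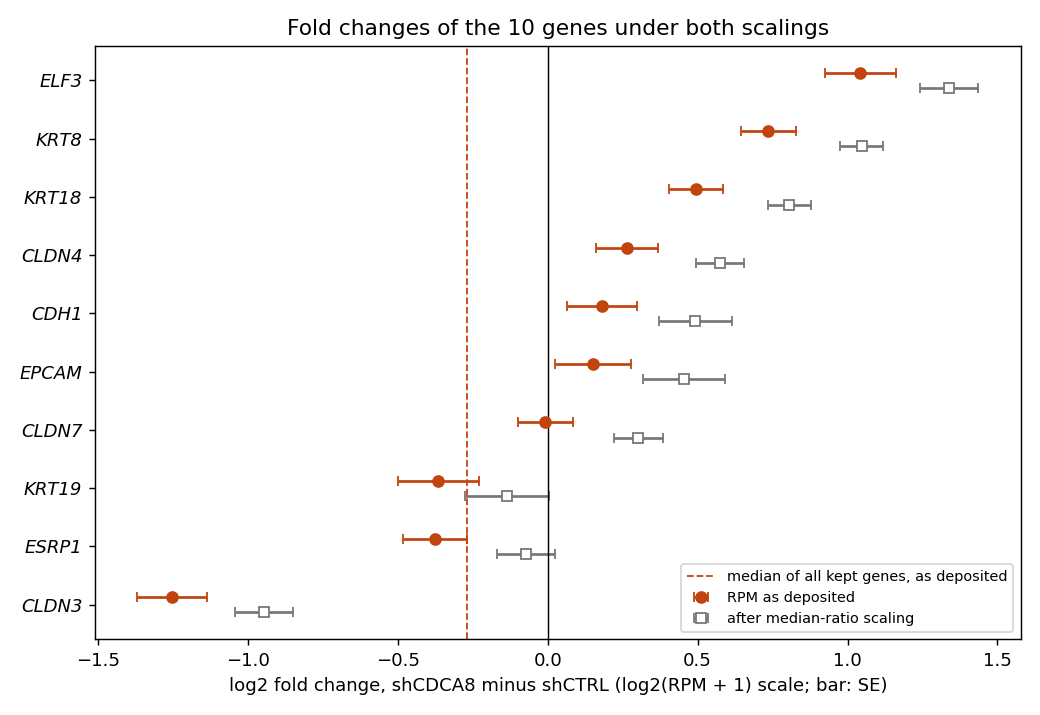
Log2 fold changes (shCDCA8 minus shCTRL, with SE) of the 10 genes from RPM as deposited and after median-ratio scaling; the dashed line is the median of all tested genes as deposited, -0.27. ELF3, KRT8, KRT18 and CLDN4 lie above 0 and CLDN3 below 0 under both scalings, while CLDN7 is at -0.0074 as deposited and at 0.30 scaled.

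The genes that work with these 10 were taken from lists of known components. Counts from every list stand beside 18.8% of all tested genes called higher and 47.6% called lower as deposited. After median-ratio scaling the shares of all tested genes were 33.2% and 33.6%. Of 16 epithelial transcription and splicing factors 3 rose and 9 fell (median -0.38; 3 and 7 after median-ratio scaling). EHF, an ETS factor closely related to ELF3, rose to 217 and 217 RPM in shCDCA8 libraries, against 154 and 120 RPM in shCTRL libraries. OVOL1 and GRHL1, factors of epithelial differentiation, rose by 0.60 and 0.56 (log2). The luminal prostate factors SPDEF (-1.56) and FOXA1 (-1.27) fell, as did KLF5 (-1.70). GRHL2, a grainyhead-like factor that controls Cdh1 and Cldn4 in mouse epithelium, was at 53.2 and 53.3 RPM in shCDCA8 libraries, against 74.1 and 78.9 RPM in shCTRL libraries (log2 fold change -0.51, and -0.21 after scaling, adjusted p = 0.0465).

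Tight junction and polarity genes moved in both directions, with 6 of 18 higher and 3 lower (median -0.06; 7 and 2 after scaling). LSR, a receptor of tricellular junctions, rose to 101 and 101 RPM in shCDCA8 libraries, against 50.2 and 55.8 RPM in shCTRL libraries. MPP5, the polarity scaffold PALS1, rose by 1.27 (log2), while TJP3, a scaffold that binds claudins, fell by 0.92.

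No adherens junction gene of 13 rose, beside 18.8% of all tested genes, and 5 fell, beside 47.6% (median -0.22). After scaling 2 were called higher, beside 33.2%, and 5 lower, beside 33.6%. Those that fell were the actin linkers VCL (-1.88) and AJUBA (-1.40), CDH3, and the nectins PVRL2 (-1.01) and PVRL1 (-0.85). The partners of E-cadherin were not called as deposited: CTNNB1 was at 69.4 and 62.1 RPM in shCDCA8 libraries, against 67.6 and 75.3 RPM in shCTRL libraries, and JUP at 335 and 429 RPM in shCDCA8 libraries, against 297 and 373 RPM in shCTRL libraries. After median-ratio scaling JUP (0.50, adjusted p = 0.00501) and CTNNA1, the alpha-catenin gene (0.34, adjusted p = 0.0109), were called higher.

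Of 10 tested desmosome and keratin linker genes 1 rose and 5 fell (median -0.36; 1 and 3 after scaling). The plaque genes EVPL (-1.20), PKP4 (-0.73) and PKP2 (-0.58) and the membrane gene PERP (-0.59) were lowest in p, and desmoglein DSG2 rose by 0.38. PKP2 was not called after median-ratio scaling (-0.31, adjusted p = 0.0707) or under the other 4 rescalings and count models. Desmoplakin (DSP), which ties keratin filaments to the desmosome, was at 27.6 and 34.6 RPM in shCDCA8 libraries, against 33.8 and 32.1 RPM in shCTRL libraries, with overlap.

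The EPCAM relative, partners and proteases were split, with 4 of 10 higher and 2 lower (median 0.08; 6 and 1 after scaling). ADAM10, a protease that sheds E-cadherin and other surface proteins, rose to 30.7 and 26.6 RPM in shCDCA8 libraries, against 10.9 and 7.36 RPM in shCTRL libraries. The tetraspanin CD9 rose by 0.49 (log2), and ST14, which encodes matriptase, fell by 0.45 (-0.14 and no call after scaling, adjusted p = 0.18).

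**Figure D4:**
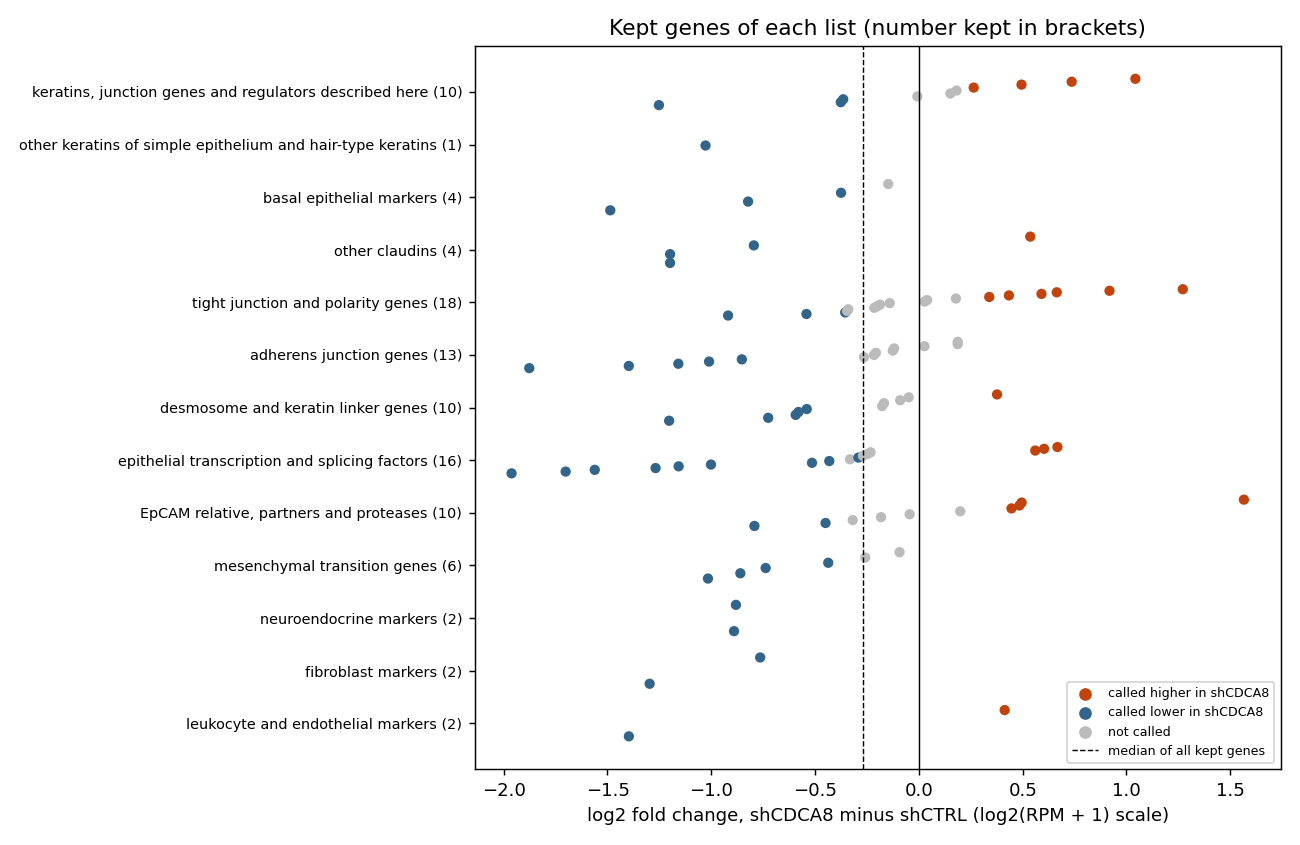
Log2 fold changes (shCDCA8 minus shCTRL) of every tested gene of the 10 described here and of each list, 1 point a gene, with the number tested in brackets and the median of all tested genes dashed at -0.27. The 10 genes span -1.25 to 1.04, and the tested basal, mesenchymal, neuroendocrine and fibroblast markers lie below 0 on this deposited scale, KRT14 (-0.15), SNAI1 (-0.26) and FN1 (-0.09) among them above the dashed median; KRT14 and FN1 are above 0 after median-ratio scaling.

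The labelled cell identity was set beside marker genes in all 4 libraries. Summed over the 10 genes, RPM was 1155 to 1180 in shCDCA8 libraries and 916 to 979 in shCTRL libraries. KRT8 and KRT18 were the largest parts of every sum. KRT8 was at 333 and 357 RPM in shCDCA8 libraries, against 198 and 216 RPM in shCTRL libraries. KRT18 was at 286 and 294 RPM in shCDCA8 libraries, against 196 and 215 RPM in shCTRL libraries. Without KRT8 and KRT18 the sums of the groups overlapped. The 12 basal markers with a row summed to between 9.86 and 9.90 RPM in shCDCA8 and between 16.3 and 16.8 RPM in shCTRL libraries. ITGA6 was the largest part of every sum, at 5.88 and 5.28 RPM in shCDCA8 libraries, against 7.47 and 7.58 RPM in shCTRL libraries. ITGB4 was at 0.804 and 1.01 RPM in shCDCA8 libraries, against 4.11 and 4.58 RPM in shCTRL libraries. Of the 12 markers 8 were under 1 RPM everywhere, KRT15, KRT16 and KRT17 among them. KRT5 and TP63 had no row under these names, so they were not analysed. Of the 4 tested, ITGB4 (-1.49), COL17A1 (-0.82) and ITGA6 (-0.37) fell, beside 47.6% of all tested genes called lower. After median-ratio scaling 2 were called lower, beside 33.6%, and ITGA6 was not (-0.10, adjusted p = 0.502). KRT14 was at 2.03 and 2.35 RPM in shCDCA8 libraries, against 2.53 and 2.53 RPM in shCTRL libraries. KRT80 was the sole gene above the filter in the list of other keratins of simple epithelium and hair-type keratins, and it fell by 1.03.

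Of 6 tested mesenchymal genes none rose and 4 fell: SNAI2 (-1.02), VIM (-0.86), LOX (-0.74) and QKI (-0.44), beside 47.6% of all tested genes called lower. After median-ratio scaling 3 were called lower, and QKI was not (-0.16, adjusted p = 0.414); without shCTRL replicate 1 QKI was at -0.23 (adjusted p = 0.237). VIM was at 1.61 and 1.12 RPM in shCDCA8 libraries, against 3.002 and 3.55 RPM in shCTRL libraries, and ZEB2, TWIST2, CDH2 and MMP2 had at most 0.0383 RPM in any library. The 13 mesenchymal genes with a row summed to between 60.6 and 71.7 RPM in shCDCA8 libraries and between 72.5 and 85.0 RPM in shCTRL libraries. Most of each sum was FN1, fibronectin, at 49.2 and 60.2 RPM in shCDCA8 libraries, against 51.2 and 65.9 RPM in shCTRL libraries, with overlap and no call (adjusted p = 0.565). Of the other markers, DLL3 (-0.89) and ENO2 (-0.88) of the neuroendocrine list, COL1A1 (-1.30) and PDGFRB (-0.76) of the fibroblast list and VWF (-1.40) of the leukocyte and endothelial list fell, and CD68 rose (0.41). Without shCTRL replicate 1 CD68 was not called (0.22, adjusted p = 0.258). Their lists summed to between 9.21 and 9.32 RPM in shCDCA8 and 17.3 and 20.6 RPM in shCTRL libraries (neuroendocrine, 7 rows), 4.59 and 5.30 against 11.9 and 14.5 RPM (fibroblast, 6 rows), and 10.2 and 11.8 against 11.1 and 14.4 RPM (leukocyte and endothelial, 5 rows). CHGA was at 0 in every library but shCDCA8 replicate 1 (0.0191 RPM). CD3E was at 0 in every library but shCTRL replicate 1 (0.0188 RPM). The part of these markers in the keratin and junction values was not tested. In bulk RNA, fewer cells of a type and less RNA per cell cannot be told apart.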

How the data were processed

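PolyA RNA of 2 shCDCA8 and 2 shCTRL libraries was analysed, grouped by title. The values are RPM, which the authors computed before deposit, as the deposited table's name states. TopHat, HTSeq, edgeR, cutadapt and build hg19 are named in the submitters' processing notes, without versions or roles; no source used here gives strandedness. All values above 0 were whole multiples of a fixed step (100% within 0.01 of a read), so whole reads were recovered. The divisor exceeded the gene rows, so RPM moves with reads outside them.

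Values were tested as log2(RPM + 1) with limma 3.58.1 in R 4.3.3 (mean-variance trend, two-sided), after the filter of 1 RPM in 2 of 4 libraries, with Benjamini-Hochberg adjustment over all 11833 genes. The fit was tested on simulated data. Median-ratio factors came from the filtered genes. The 14 alternatives included edgeR 4.0.16 (7807 calls) and DESeq2 1.42.0 (7214 calls) on recovered reads; limma gave 7852. Within a group the libraries were no duplicates: chi-square over its degrees of freedom was 11.6 (shCDCA8) and 9.70 (shCTRL).

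The 10 genes and the 12 lists were chosen with earlier results of these data known. Named from a list were up to 4 called genes with the smallest adjusted p (some are not reported here), beside the members, CDCA8 and neighbouring genes; PVRL1, GRHL1, GRHL2, OVOL1, EHF, ESRP2, DSG2, CTNNB1, CTNNA1, JUP, SNAI1, FN1, DSP and KRT14 were named after their values were seen. Neighbours and overlaps are from RefSeq gene order (GRCh38.p14).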

Additional observations from a re-analysis of the deposited data

How the results depend on the processing

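The number of genes called stayed between 5974 and 8901 over the 14 alternatives, against 7852. Of the 10 genes, 7 were called higher and 1 lower after median-ratio scaling, quantile normalization, scaling to the sum of the gene rows, edgeR and DESeq2, against 4 and 3 as deposited; each of these rescales the libraries. Leaving out 1 library at a time gave 3 to 4 called higher and 1 to 3 called lower, the 1 being without shCTRL replicate 1. CLDN7 turned from -0.0074 to 0.30 (median-ratio), 0.23 (quantile), 0.32 (sum of the rows), 0.30 (edgeR) and 0.30 (DESeq2), and lay between -0.030 and 0.015 when 1 library was left out. EPCAM lay between -0.0090 and 0.31 when 1 library was left out, with no call. KRT19 turned to 0.0090 under quantile normalization (adjusted p = 0.955); the cause was not tested. Calls of CLDN4 held in 11 of 14 alternatives, of ESRP1 in 8 of 14 and of KRT19 in 4 of 13 (at the filter of 5 RPM it was not tested). Of 39 named list genes with CDCA8, 7 lost a call under some alternative (CD68, ENO2, ITGA6, LOX, PKP2, QKI and ST14) and none changed sign. Replicate numbers are shared between the groups, but no label says that they pair the libraries; same-numbered deviations correlated at 0.31 over genes, and the replicate block gave 8901 calls, with the same 4 and 3 of the 10 genes, and left the ratio differences at 0.24 (KRT8 to KRT18) and 1.52 (CLDN4 to CLDN3). With 2 libraries a group, exact tests over libraries cannot go below 0.333, and 117 to 183 reads limit KRT19.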
